A study of Mus musculus with 8 samples.

Results

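The genes described here are Abca2, Abca3, Abca5, Abca6, Abca7, Abca8b and Abca9, 7 members of the A subfamily of ATP-binding cassette transporters (ABCA), out of 49315 genes in a count table of mouse macrophages. They are the members of the family, other than Abca1, that were picked out by name with their difference between the groups already known, so the differences in their levels are given as a description and carry no p-value. All 7 were found under their Ensembl identifiers. All 7 passed the filter on low counts that left 13051 genes for testing, but Abca6 passed it through the MAARS knockdown group alone, since its control libraries held only 2 to 6 counts each.

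ABCA proteins are large membrane proteins that use ATP to move lipids from a membrane leaflet or out of the cell. Abca1, the best known, hands cholesterol and phospholipid to apolipoprotein A-I and is a main route by which macrophages shed cholesterol. Abca2, Abca3 and Abca5 work in lysosome-related compartments, Abca7 has been tied to phospholipid handling and phagocytosis, and Abca5, Abca6, Abca8b and Abca9 belong to a branch of the family whose genes lie side by side on mouse chromosome 11.

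RNA-Seq was performed on bone marrow-derived macrophages (BMDMs), primary cells grown from femur and tibia marrow of C57BL/6 mice in medium with the macrophage growth factor M-CSF at 10 ng/ml. The cells were transfected with a gapmeR, an antisense oligonucleotide that directs RNase H to cut its target RNA, at 25 nM per the labels (the study's methods give the amount as 25 nmol). In 4 libraries the gapmeR was directed at MAARS (the lncRNA gene Gm14461; replicates 9, 11, 13 and 15) and in 4 it was a negative control (replicates 2, 5, 6 and 7). All 8 libraries therefore came from cells given a gapmeR and the transfection reagent. The labels do not say that the libraries came from separate animals or cultures, so any p-value measures the spread between these libraries, which may be technical. The control libraries held 19287279 to 20567123 counts on genes, and the MAARS gapmeR libraries held 20839671 to 24541205.

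MAARS itself (ENSMUSG00000054510, GRCm38 chromosome 2, 78237547 to 78302230) fell from 13.1 ± 1.36 to 6.81 ± 0.844 CPM (counts scaled to the TMM-adjusted library size; mean ± SD, n = 4), a log2 fold change of -0.95 (SE 0.112; adjusted p = 5.8e-05 with edgeR's quasi-likelihood test, Benjamini-Hochberg adjustment). An exact two-sided permutation test over all 70 ways to assign the labels gave p = 0.0286, the smallest it allows. The macrophage identity in the labels was checked against 10 markers, all of them above the filter, whose summed level was 18500 to 22300 CPM in the control libraries and 21300 to 24300 CPM after MAARS knockdown. Of these markers 5 were higher, 4 lower, and Fcgr1, the high-affinity IgG receptor, fell most (log2 fold change -2.09, adjusted p = 7.1e-06). Across all 13051 genes 45.4% differed between the groups at an adjusted p under 0.05, with 21.3% higher and 24.0% lower after MAARS knockdown, and the median log2 fold change was 0.01. With upper-quartile scaling the median of all genes moved to 0.07 and the share of called genes that were higher went from 47.0% to 60.4%, so a shift of that size in a single gene depends on the scaling.

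Of the 7 members, 6 were higher after MAARS knockdown at that threshold with edgeR, DESeq2 and limma-voom, and 0 were lower with any of them or at an unadjusted p under 0.05, against 21.3% of all genes called higher. In 5 of the 7 (Abca2, Abca3, Abca6, Abca7 and Abca9) the groups did not overlap, against 19.3% of all genes that did not overlap and were higher. Because the members were picked out with this contrast known, and Abca6 passed the filter only through the group where it was high, nothing is read from either count. The first count leaves out Abca8b, and it fell to 5, leaving out Abca5 as well, without control replicate 5, 6 or 7, without MAARS gapmeR replicate 11 or 13, and without control replicate 7 and MAARS gapmeR replicate 13 together. The members' log2 fold changes ran from 0.28 to 2.79 with a median of 0.61, and all 7 stayed positive in each of 14 other fits.

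**Figure D1:**
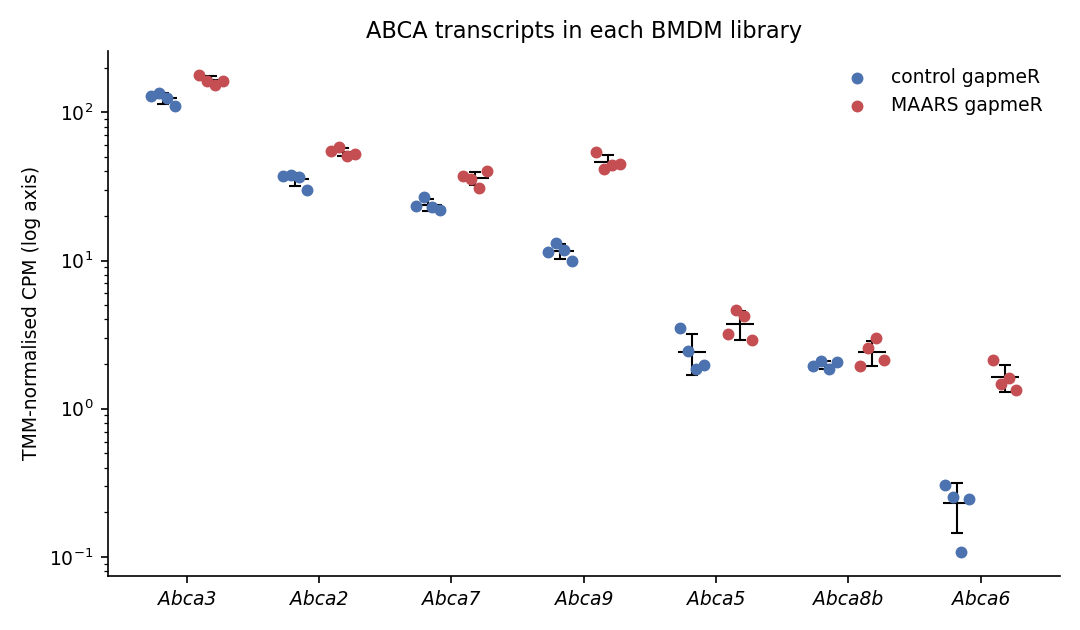
TMM-normalised CPM of the 7 ABCA members (y axis, log scale) in each library, with control gapmeR in blue and MAARS gapmeR in red. Points are libraries in order of replicate number, and black bars give the mean and SD of 4. Abca9 and Abca6 show the widest gaps between the groups, and the points of Abca5 and Abca8b overlap.

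Abca9 (ENSMUSG00000041797) lies on the minus strand of chromosome 11 from 110100749 to 110168196. Its level was 11.5, 13.2, 11.7 and 9.96 CPM in control replicates 2, 5, 6 and 7, and 53.8, 41.2, 44.2 and 44.6 CPM in MAARS gapmeR replicates 9, 11, 13 and 15. The lowest MAARS gapmeR library thus held more than the highest control library, and the means were 11.6 ± 1.34 and 46.0 ± 5.44 CPM (SD, n = 4). The log2 fold change was 1.99 (SE 0.101), or 3.96-fold, which ranked 13 among the increases of the 13051 genes. These values rest on 203 to 260 counts per control library and 963 to 1138 per MAARS gapmeR library. The spread between libraries (coefficient of variation 11.5% in control and 11.8% in MAARS gapmeR libraries) was larger than counting alone would give (6.65% and 3.1%).

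Abca6 (ENSMUSG00000044749; chromosome 11, 110176820 to 110251776, minus strand), whose region in the human genome is associated with LDL cholesterol, was the least abundant member. It had 6, 5, 2 and 5 counts in control replicates 2, 5, 6 and 7, which is 0.307, 0.255, 0.108 and 0.245 CPM. In MAARS gapmeR replicates 9, 11, 13 and 15 it had 45, 37, 35 and 31 counts, or 2.13, 1.47, 1.61 and 1.34 CPM. Every MAARS gapmeR library thus held at least 31 counts where no control library held more than 6. The fitted log2 fold change was 2.79 (SE 0.315; 6.93-fold), and the ratio of the summed counts (148 against 18, scaled by library size) was 7.04 with a 95% exact interval of 4.3 to 12.2 that covers counting error only. That interval is no test of the difference. In control libraries the spread between libraries (37.1%) was within what counting gives (47.1%), so the control level of Abca6 is known only roughly. No stretch of 100 bases, the read length, was identical between the longest Abca6 transcript and any other gene, and at 50 bases 0.25% of positions matched Abca9.

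Abca5 and Abca8b, the other detected members of the chromosome 11 block, moved less and their groups overlapped. Abca5 (110269369 to 110337716), a lysosomal member, measured 3.48, 2.44, 1.84 and 1.96 CPM in control replicates 2, 5, 6 and 7 and 3.21, 4.65, 4.22 and 2.9 CPM in MAARS gapmeR replicates 9, 11, 13 and 15. Control replicate 2 lay above MAARS gapmeR replicates 9 and 15, and the log2 fold change was 0.63 (SE 0.229; ratio of summed counts 1.55, counting interval 1.29 to 1.86). Abca8b (109932190 to 109995845), whose human relative ABCA8 has been linked to HDL cholesterol, measured 1.94, 2.09, 1.84 and 2.06 CPM in the control libraries and 1.94, 2.58, 2.98 and 2.12 CPM in the MAARS gapmeR libraries in the same order. MAARS gapmeR replicate 9 lay at the level of the controls while replicates 11, 13 and 15 lay above all of them, replicate 15 narrowly, with a log2 fold change of 0.28 (SE 0.181) and a counting interval of 0.985 to 1.5 around a ratio of 1.22. This interval too covers counting error only. Of the Abca8b exon bases 3.25% also lie in exons annotated on the opposite strand, and whether the counting used the strand is not given in the sources used here.

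The starts of these neighbours differ in base composition, and the 250 bases before the RefSeq start site (GRCm38.p6, minus strand, written 5′ to 3′) are shown for the 3 of them that have an entry in the RefSeq promoter table, with each CG dinucleotide in capitals. Abca9 is chr11:110168154-110168403, Abca8b chr11:109995846-109996095 and Abca5 chr11:110337717-110337966.
Abca9: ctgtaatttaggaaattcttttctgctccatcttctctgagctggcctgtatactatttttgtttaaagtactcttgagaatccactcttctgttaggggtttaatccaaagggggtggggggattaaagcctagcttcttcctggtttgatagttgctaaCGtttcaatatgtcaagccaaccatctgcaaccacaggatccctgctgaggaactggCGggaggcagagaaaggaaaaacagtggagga
Abca8b: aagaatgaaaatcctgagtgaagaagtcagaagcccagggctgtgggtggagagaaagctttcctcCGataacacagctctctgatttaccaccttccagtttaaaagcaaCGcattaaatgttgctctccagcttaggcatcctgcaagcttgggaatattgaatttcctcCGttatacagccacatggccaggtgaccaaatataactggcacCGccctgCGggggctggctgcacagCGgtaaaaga
Abca5: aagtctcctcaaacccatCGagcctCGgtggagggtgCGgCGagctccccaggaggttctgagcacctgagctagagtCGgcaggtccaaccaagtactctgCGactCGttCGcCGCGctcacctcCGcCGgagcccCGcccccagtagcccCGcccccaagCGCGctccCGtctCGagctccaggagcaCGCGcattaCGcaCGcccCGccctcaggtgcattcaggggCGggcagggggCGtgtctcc

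The Abca9 stretch holds 2 CG dinucleotides, that of Abca8b 6 and that of Abca5 25. Over windows of 300 bases (250 before and 50 after the start), the GC content was 45.3% for Abca9, 51.3% for Abca8b and 72.3% for Abca5, where the median of 32817 RefSeq windows was 52.7% with quartiles of 45.7% and 61.7%. Abca9 thus lay below the lower quartile of GC content and Abca5 above the upper. The window of Abca8a, a gene of the same block with 0 to 3 counts in any library, was lower still in GC content, at 44.3%. In the same windows of 300 bases the count of CG dinucleotides was 2 for Abca9, 10 for Abca8b and 40 for Abca5. For the members elsewhere in the genome it was 26 for Abca2, 29 for Abca3 and 19 for Abca7. The RefSeq start of Abca2 (25428599) lies before its annotated gene start (25428703). Its bases after the RefSeq start were not found in an annotated transcript, unlike those of the other members with a window. The median over all windows was 7, with quartiles of 3 and 20. In all, 6 of the 7 members had a window.

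The windows were searched on both strands for 9 short motifs. GGGGCGGGG, the Sp/KLF box held by 11.4% of all windows, occurred in Abca5 with its first base 116 and 101 bases before the start and in Abca7 with its first base 47 before it. The E-box CACGTG (7.15% of windows) occurred in Abca8b with its first base 18 bases after the start. None of the 6 windows held the DR4 element of the oxysterol receptor LXR (a repeat of AGGTCA with a gap of 4 bases, 0.0152% of windows), AGGTCA alone (16.3%), the lysosomal CLEAR element (0.326%, an E-box with fixed bases at each side), the interferon elements ISRE (3.43%) and GAS (TTCNNNGAA, 8.29%), the PU.1 site GAGGAAGT (3.2%) or the AP-1 site TGANTCA (7.81%). The windows of Abca2, Abca3 and Abca9 held no match to any of the 9. A missing match says only that these letters were not in that window.

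The remaining 3 members lie on other chromosomes and had higher control levels than the members of the block. Their log2 fold changes were smaller than those of Abca9 and Abca6 and lay between those of Abca8b (0.28) and Abca5 (0.63). Abca2 (chromosome 2, 25428703 to 25448540), which acts in lysosomes and is abundant in myelin-forming cells, measured 37.3, 37.6, 36.8 and 29.9 CPM in control replicates 2, 5, 6 and 7 and 55.1, 58.4, 50.5 and 52.0 CPM in MAARS gapmeR replicates 9, 11, 13 and 15. The lowest MAARS gapmeR library stood well above the highest control library, and the log2 fold change was 0.61 (SE 0.0778; 1.53-fold). Control replicate 7 stood below the other 3 controls.

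Abca7 (chromosome 10, 79996494 to 80015572), a gene in which loss-of-function variants raise the risk of Alzheimer disease, measured 23.5, 26.9, 23.1 and 21.8 CPM in the control libraries and 37.2, 35.6, 31.1 and 40.1 CPM in the MAARS gapmeR libraries. Its groups did not overlap, and its log2 fold change was 0.59 (SE 0.0869; 1.51-fold). Abca3 (chromosome 17, 24351950 to 24410201), which loads surfactant phospholipid into the lamellar bodies of alveolar type II cells, measured 129, 136, 125 and 111 CPM in the control libraries and 180, 162, 152 and 164 CPM after MAARS knockdown. Its log2 fold change of 0.40 (SE 0.0684; 1.32-fold) was the smallest of the 5 members whose groups did not overlap. Of the Abca3 exon bases 9.75% lie in exons annotated on the opposite strand, and 10.1% of the 100-base windows of its longest transcript are found identically in Abca17 or D330041H03Rik, so that part of its counts may be shared. Abca17 had no more than 1 count in any library.

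Within the control group, replicate 7 was the lowest library for 4 of the 7 members (Abca2, Abca3, Abca7 and Abca9) and replicate 6 for the other 3. Control replicate 7 also had the highest summed level of fibroblast and stromal markers (1060 CPM) and the lowest of macrophage markers (18500 CPM) in its group. Without control replicate 7 and MAARS gapmeR replicate 13, the library with most stromal RNA in its own group (1250 CPM), the log2 fold changes were 1.94 for Abca9, 2.83 for Abca6, 0.57 for Abca2, 0.62 for Abca7 and 0.38 for Abca3. Abca5 then stood at 0.47 and Abca8b at 0.18.

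Levels of different genes were set side by side per kilobase of exon. In control libraries the order was Abca3 (13.3 ± 1.13 CPM per kb; SD, n = 4), Abca2 (4.24 ± 0.442), Abca7 (3.53 ± 0.322), Abca9 (1.44 ± 0.166), Abca8b (0.267 ± 0.0155), Abca5 (0.213 ± 0.0652) and Abca6 (0.0424 ± 0.0157). Abca2 and Abca7 overlapped in range, as did Abca8b and Abca5, and the other neighbours in this order did not. After MAARS knockdown Abca3 (17.6 ± 1.24 CPM per kb) and Abca2 (6.47 ± 0.416) were followed by Abca9 (5.71 ± 0.676) and then Abca7 (5.33 ± 0.556), with Abca2 and Abca9, and Abca9 and Abca7, overlapping in range. Abca5 (0.328 ± 0.0722), Abca8b (0.324 ± 0.0635) and Abca6 (0.303 ± 0.0637) then lay together, each overlapping the next. Abca9 thus went from a level below Abca7 in every library to a level among Abca2 and Abca7. With the longest transcript as the length, Abca9 (7.2 CPM per kb) came before Abca2 in the MAARS gapmeR group and Abca5 before Abca8b in the control group.

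**Figure D2:**
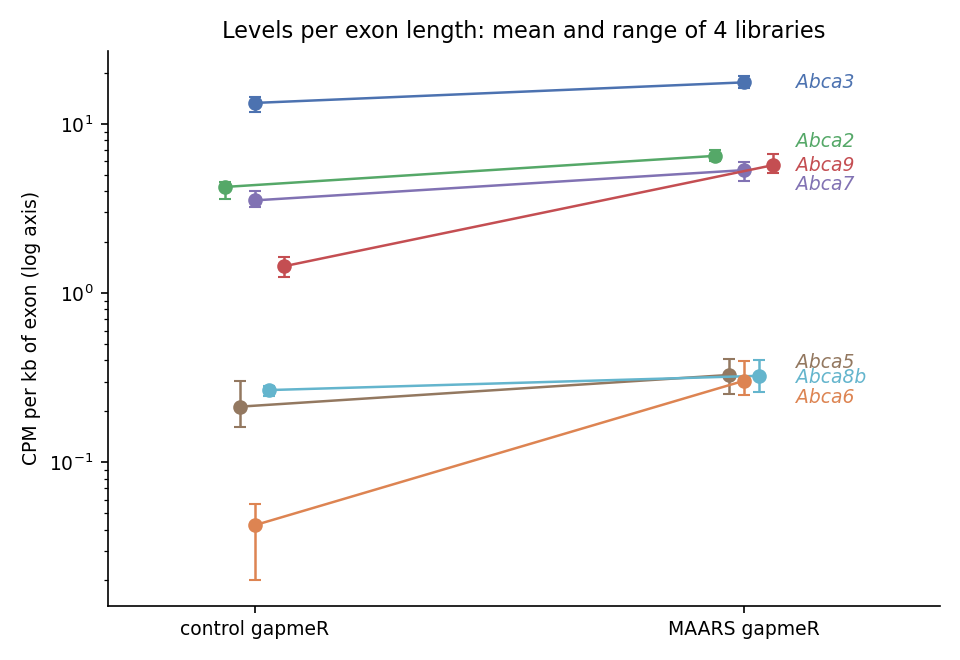
CPM per kb of exon (y axis, log scale) of each member in the 2 groups; points are means and bars span the lowest to the highest of 4 libraries. Abca9 joined Abca2 and Abca7, and Abca6 joined Abca5 and Abca8b, after MAARS knockdown.

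Summed over the 7 members, the level was 20.3 to 25.2 CPM per kb in control libraries and 33.5 to 39.0 CPM per kb in MAARS gapmeR libraries. Abca3 made up 57.5% to 58.0% of that sum in the control group and 48.5% to 49.4% in the MAARS gapmeR group. The share of Abca9 was 6.02% to 6.54% in the control group and 14.3% to 17.1% in the MAARS gapmeR group. The makeup of the sum thus varied little between libraries of a group.

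The chromosome 11 block spans 405.5 kb (109932190 to 110337716) and runs Abca8b, Abca8a, Abca9, Abca6, Abca5, all on the minus strand, with gaps of 29.79, 4.77, 8.623 and 17.59 kb between them. Abca8a, which lies between Abca8b and Abca9, had 0 to 3 counts in any library (3 summed over the controls and 7 over the MAARS gapmeR libraries), too few to be tested. The size of the difference was therefore uneven along the block, from 0.28 at Abca8b to 1.99 and 2.79 at the neighbouring pair Abca9 and Abca6 and 0.63 at Abca5. Within 500 kb of the block's ends 17 other genes were listed and 7 passed the filter, of which 3 were higher and 0 lower with edgeR, DESeq2 or limma-voom, with 4 higher and 0 lower at an unadjusted p under 0.05 (median log2 fold change 0.27, against 0.01 over all genes, of which 21.3% were higher and 24.0% lower). The 3 fell to 1, Wipi1, without control replicate 6 or 7 or MAARS gapmeR replicate 9 or 11. Wipi1, which binds phosphoinositides in autophagosome formation, rose from 23.3 ± 1.52 to 35.1 ± 1.64 CPM (log2 fold change 0.59, adjusted p = 2.7e-05). Map2k6, a kinase that activates p38, had a log2 fold change of 0.61 (edgeR adjusted p = 0.0219), a call lost without control replicate 6 or 7 or MAARS gapmeR replicate 9 or 11. Prkar1a, a regulatory subunit of protein kinase A, had one of 0.12 (edgeR adjusted p = 0.0359), a call lost without any library but control replicate 5. The other 4 did not pass the test, with log2 fold changes of 0.39 for Fam20a (SE 0.305), 0.27 for Arsg (SE 0.122), 0.01 for Amz2 (SE 0.0592) and -0.01 for Slc16a6 (SE 0.0682).

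**Figure D3:**
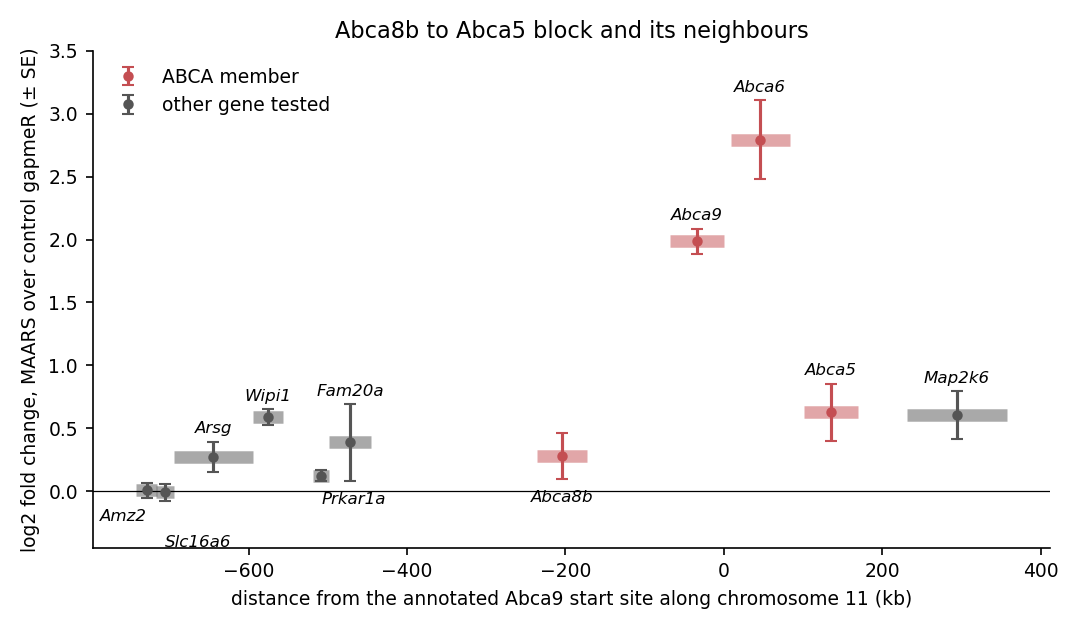
Log2 fold change (y axis, MAARS over control gapmeR, with its SE) of each gene tested around the ABCA block, against distance from the Abca9 start site in kb along chromosome 11. Thick bars span each gene, with members in red and other genes in grey. Abca9 and Abca6 stand at 1.99 and 2.79, and no other gene shown exceeds 0.63.

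The rest of the ABCA family holds 9 genes, of which only Abca1 and Abca13 passed the filter. Abca1, the cholesterol exporter, rose from 559 ± 63.1 to 965 ± 129 CPM (SD, n = 4; log2 fold change 0.79, SE 0.0996, edgeR adjusted p = 9.1e-05). Per kilobase it stood at 54.0 CPM in the control group, above Abca3, and at 93.1 CPM in the MAARS gapmeR group. Abca13 was near the floor, at 0.535 ± 0.178 and 0.52 ± 0.153 CPM (log2 fold change -0.05, SE 0.334, edgeR adjusted p = 0.907), with a sign that turned under upper-quartile scaling. Abca4, Abca8a, Abca14 and Abca17 had at most 3 counts in a library, and Abca12, Abca15 and Abca16 had none.

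Genes whose profile over the 8 libraries was nearest to that of Abca9 were named by the root mean square (RMS) difference of log2 CPM, each gene taken relative to its own control mean. The nearest were Trnp1 (RMS difference 0.176), a nuclear protein known from neural progenitors, and Igfbp4 (0.178), which binds insulin-like growth factors. Cd163 (0.198), the haemoglobin scavenger receptor of macrophages, and Slco2b1 (0.21), an organic anion transporter, were also among the 5 nearest. Their log2 fold changes were 1.86 for Trnp1, 1.88 for Igfbp4, 2.13 for Cd163 and 1.81 for Slco2b1. This likeness was computed on the contrast that chose Abca9 and is a description. Nearest to Abca6 were Cd163 (0.394), the receptor gene Gprc5c (0.398) and Cyp39a1 (0.41), an oxysterol hydroxylase, with Abca9 in position 4 (0.447).

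**Figure D4:**
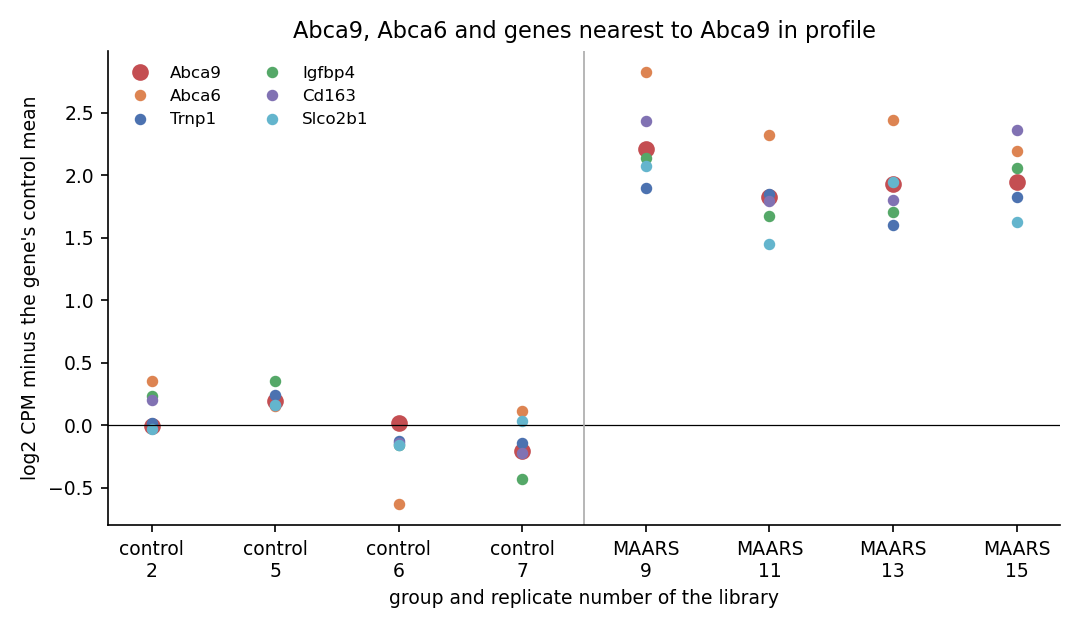
Log2 CPM of Abca9, Abca6 and 4 of the 5 genes nearest to Abca9, minus each gene's control mean (y axis), in the 8 libraries (x axis; replicates have no order). The 4 genes lie around Abca9 in each MAARS gapmeR library, between 1.45 and 2.44, and Abca6 lies above Abca9 in all 4.

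Other transporters and lipid genes were read from 5 lists, beside 21.3% of all genes higher and 24.0% lower. Among the 27 tested genes of the other ABC subfamilies 10 were higher and 7 lower (median log2 fold change 0.05). Abcb4, which flips phosphatidylcholine into bile, rose by 0.90, and the drug and conjugate exporters Abcc3 and Abcc1 by 0.61 and 0.57 on the log2 scale. Tap1 and Tap2, which carry peptides for MHC class I, had log2 fold changes of -1.75 and -0.83, and the drug exporter Abcb1a one of -1.21. ABC transporters outside the A subfamily thus moved in both directions.

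Cholesterol efflux and LXR genes showed 8 higher and 3 lower of 21 tested (median log2 fold change 0.13). Besides Abca1, the bile acid enzyme Cyp27a1 (1.01) and the LXR partner Rxrb (0.56) were higher, while Abcg1 (-0.61), which exports cholesterol to HDL, the lysosomal cholesterol carrier Npc2 (-0.66) and Nr1h3 (-0.71), the gene of LXRα, were lower. Abcg1 therefore moved against the ABCA members. Of 21 flippases and scramblases, which move phospholipids between leaflets, 5 were higher and 5 lower, with Ano6 at 0.54 and Atp8b2 at 0.26, and Atp10a at -1.10, Xkr8 at -0.54 and Plscr1 at -0.53. Of 35 sphingolipid genes 10 were higher and 12 lower, with the galactosylceramidase Galc at 0.81, the receptor S1pr1 at 0.66 and the ceramide kinase Cerk at 0.57, and the lysosomal galactosidase Gla at -0.49 and the ceramidase Asah2 at -0.57. Of 22 genes of sterol synthesis and uptake 1 was higher and 6 lower (median -0.10). Insig1, which holds back sterol synthesis, was the higher gene (0.32, edgeR adjusted p = 0.0468), a call lost without control replicate 2, 6 or 7 or MAARS gapmeR replicate 9, 11 or 15 (adjusted p up to 0.136), and the synthesis enzymes Nsdhl (-0.44), Mvk (-0.33) and Lss (-0.33) were among the lower. The sterol count ranged from 3 to 9 when single libraries were left out, with 3 called without MAARS gapmeR replicate 9 and 4 called without control replicate 2 or MAARS gapmeR replicate 13.

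**Figure D5:**
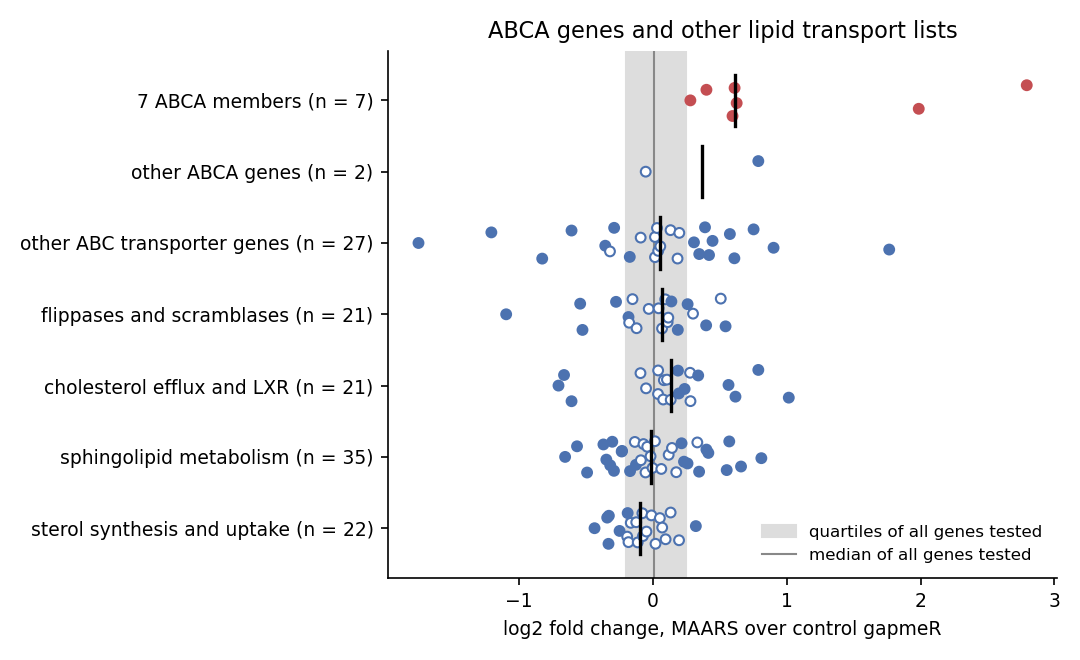
Log2 fold change (x axis) of each tested gene in the ABCA family and the 5 other lists; each point is a gene, and the short black line is the list's median. In blue rows filled points passed an edgeR adjusted p of 0.05 and open points did not; members (red) are shown without a test. Grey marks the median and quartiles of all 13051 genes, and the members lie above the upper quartile of 0.249.

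In these bulk libraries fewer cells of a type and less RNA per cell cannot be told apart. Markers of other cells were therefore read beside the members. Fibroblast and stromal markers summed to 465 to 1060 CPM in control libraries and 730 to 1250 CPM in MAARS gapmeR libraries, overlapping in range, and 0 of 7 tested were called with edgeR or limma-voom, 1 with DESeq2 and 1 at an unadjusted p under 0.05 with edgeR. Of the 7, 6 had a positive log2 fold change (median 0.31), and the abundant Col1a1 (335 and 436 CPM in the control and MAARS gapmeR groups; 0.38) and Col1a2 (351 and 436 CPM; 0.31) made up most of the sum, while Lum and Dpt were at 0 to 4 counts. Without control replicate 7 alone 5 stromal markers, Col1a1 and Col1a2 among them, were called higher. The library with the most stromal RNA in the control group, replicate 7, had the lowest Abca9 of that group. MAARS gapmeR replicate 9, with the least stromal RNA in its group, had the highest Abca9. The MAARS gapmeR library with the most, replicate 13, did not have the lowest Abca9 (44.2 CPM, against 41.2 CPM in replicate 11). Abca8b went the other way in that group, lowest in replicate 9 (1.94 CPM) and highest in replicate 13 (2.98 CPM). The macrophage marker sum was highest in control replicate 5 (22300 CPM) and lowest in control replicate 7 (18500 CPM), as Abca9 was. In the MAARS gapmeR group that sum and Abca9 were both highest in replicate 9 and lowest in replicate 11 (sums 24300 and 21300 CPM). Endothelial markers summed to 49.4 to 79.8 and 77.4 to 140 CPM. Vwf, at 45.2 and 92.3 CPM in the control and MAARS gapmeR groups, made up most of that sum. Vwf was higher (log2 fold change 1.03) and Kdr lower (-1.54). Of the 4 endothelial markers tested, 1 had a positive log2 fold change (median -0.44). The endothelial sum was highest in control replicate 5 and MAARS gapmeR replicate 9 (79.8 and 140 CPM), the libraries with the highest Abca9 of each group. It was lowest in control replicate 7, as was Abca9, and in MAARS gapmeR replicate 13 (49.4 and 77.4 CPM). Granulocyte and progenitor markers ranged from 102 to 302 and from 107 to 169 CPM with 0 of 8 called by edgeR, DESeq2 or limma-voom (1 lower at an unadjusted p under 0.05), but 4 (Ltf, Mpo, Ngp and Prtn3) were called lower without control replicate 5 or without the filter. All 8 had a negative log2 fold change, from -0.838 to -0.282 (median -0.48). Dendritic cell markers ranged from 1.18 to 2.76 and from 1.37 to 1.79 CPM with 0 of 1 called by any of these tools or at an unadjusted p under 0.05, and Xcr1, which did not pass the filter, was called lower in 6 of 14 alternatives (without the filter, control replicate 2 or any single MAARS gapmeR library). The lymphocyte sum did not exceed 0.54 CPM and the adipocyte sum did not exceed 0.256 CPM (Adipoq, Cidec and Lep at 0). The part of other cells in the members' differences was not tested.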

How the data were processed

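RNA-Seq of 8 BMDM libraries (2 x 100 nt, ribodepleted) was used. Per the labels and methods, the authors trimmed reads with Trimmomatic 0.36, aligned them with STAR 2.5.2b to GRCm38 (mm10) with Ensembl release 79, and counted them per gene with featureCounts of Subread 1.5.2. The deposited values are these raw counts, not normalized. How strand and multi-mapping reads were handled is not given in the sources used here.

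Groups followed the labels. The filterByExpr filter was applied with at least 10 counts and a total of 15, and genes were fitted with TMM factors by edgeR 4.0.16 (glmQLFit, glmQLFTest; R 4.3.3) with Benjamini-Hochberg adjustment over 13051 genes; a gene was called at an adjusted p under 0.05. The procedure was tested on simulated data. CPM values were TMM-normalized, and positions and lengths came from GENCODE M21 on GRCm38. Libraries held 19287279 to 24541205 counts. Pairs of libraries within a group had a chi-square of 4.24 to 15.1 for each gene, above sampling noise, and none was counted as a repeat of another. The closest pairs were control replicates 6 and 7 (4.24) and MAARS gapmeR replicates 11 and 13 (5.23). Whether close libraries share an animal or culture is not given in the labels. Alternatives were RLE and upper-quartile factors, DESeq2 1.42.0, limma-voom (limma 3.58.1), no filter, the longest transcript as length, a window of 1000 kb around the block, each library left out, and, chosen after seeing the data, 2 libraries left out together.

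The members and lists were chosen with earlier results of these data known. Named genes were MAARS, the members, other ABCA genes with at least 10 counts in some library, genes tested within 500 kb of the block, the 3 genes of each list with the smallest p in each direction, and the 5 nearest to Abca9 in profile; a few genes the rule names are not reported here. Promoter windows came from RefSeq (GRCm38.p6). Members' proteins were not compared here.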

Additional observations from a re-analysis of the deposited data

Results flagged for a closer look

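Among the named genes, 98 groups of 4 libraries were examined for a library far from the other 3, and chance alone would mark about 1 in 20 of them. In 2 groups the gap to the nearest library, divided by the group's whole range, reached the critical value of Dixon's test at the 95% level. Abca2 in control replicate 7 stood at 29.9 CPM, below the 36.8 to 37.6 CPM of the other controls (ratio 0.894). Abcb4, the phosphatidylcholine transporter, stood at 15.7 CPM in the same library against 18.7 to 19.4 CPM in the others (ratio 0.829). Both were in control replicate 7, the control library with the most stromal and granulocyte marker RNA (1060 and 302 CPM); the part of these cells in the 2 values was not tested.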

How the results depend on the processing

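No paired analysis was possible because the groups share no replicate numbers. All 7 members kept their direction in 14 other fits, with log2 fold changes of 1.90 to 2.05 for Abca9, 2.57 to 2.96 for Abca6, 0.53 to 0.67 for Abca2, 0.34 to 0.46 for Abca3, 0.54 to 0.66 for Abca7, 0.47 to 0.85 for Abca5 and 0.16 to 0.36 for Abca8b. The genes called numbered 4662 to 6001 (5919 as reported), and MAARS ranged from -1.01 to -0.88. When single libraries were left out, called neighbours of the block numbered 1 to 3 (1 without control replicate 6 or 7 or MAARS gapmeR replicate 9 or 11), and called sterol genes 3 to 9. Within 1000 kb of the block 11 genes were tested, of which 3 were higher and 1 lower, against 21.3% and 24.0% of all genes. Signs turned for genes near 0: with upper-quartile factors Abca13 stood at 0.0069 and Slc16a6 at 0.0548, and without the 2 libraries with the most stromal RNA Amz2 stood at -0.0012 and Slc16a6 at 0.0514. Leaving out single libraries gave -0.26 to 0.19 for Abca13, -0.0219 to 0.0375 for Amz2 and -0.0849 to 0.0388 for Slc16a6. Arsg was called with upper-quartile factors (0.33, adjusted p = 0.0407) and without MAARS gapmeR replicate 13 (0.35, adjusted p = 0.04), both with edgeR, over a range of adjusted p from 0.04 to 0.265. Prkar1a was not called without the filter (0.12, edgeR adjusted p = 0.128) or without the 2 libraries (0.12, edgeR adjusted p = 0.118). Causes were not tested. Depth limits Abca6, with 18 counts over the 4 controls.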
